A study of Mus musculus with 32 samples.

Results

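The Cyp2c genes were followed here through the liver of mice fed a methionine and choline deficient diet, treated with Fc-GLP-1 and subjected to partial hepatectomy (PH). The members are the 10 genes Cyp2c29, Cyp2c37, Cyp2c38, Cyp2c39, Cyp2c40, Cyp2c44, Cyp2c50, Cyp2c54, Cyp2c55 and Cyp2c70, found by the gene name that the array files give to each probe. Of these 10 genes, 9 had probes of their own name, 13 probes out of 55681 on the array. Cyp2c40 had none. All 13 probes passed the filter on dim signals and were measured in all 8 groups, so no member was kept only through the group where it was high. Cyp2c44 is the gene now called Cyp2c23 in RefSeq.

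Whole-liver RNA was hybridized to 32 1-colour 60-mer arrays, 1 array per liver and 4 livers in each of 8 groups of young adult male C57/BL6 mice. The C group had a standard (chow) diet with saline, and the MCD group a methionine and choline deficient diet, both for 3 weeks. The M+Fc-GLP-1 group had the deficient and the C+Fc-GLP-1 group the standard diet, with Fc-GLP-1 during the last 2 weeks. Livers were taken at PH, which removed 70% of the organ, or 2 weeks after PH with diet and drug continued. The later livers came from survivors only, and the authors reported that the drug raised survival on either diet. Groups after PH may therefore differ in which mice lived on. The part of survival in the differences that use these groups was not tested. Sample names call the drug Fc-GLP-1, an agonist of the GLP-1 receptor, whereas sample descriptions speak of a co-agonist that also acts on the glucagon receptor, given at 4.4 mg/kg/day, and which of them was given is not settled here. The source labels of the C+Fc-GLP-1 livers after PH name Fc-GLP-1 before PH and a dual agonist after it. Those of the M+Fc-GLP-1 livers after PH say that the same treatment went on. By these labels the diets of treated mice after PH may also differ in drug, and the 2 cannot be told apart. The MCD diet gives steatosis and inflammation in lean mice that lose weight, which limits it as a model of human fatty liver disease. The labels call the samples of a group biological replicates. The names of the untreated samples carry the same codes before and after PH, but no label says whether a code stands for 1 mouse, so the samples were not paired in the main fit.

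Cyp2c genes encode microsomal cytochrome P450 monooxygenases, many of them abundant in hepatocytes, and most lie in a cluster of paralogues, some of which are closely alike. Each of them receives electrons from the P450 reductase encoded by Por. Several Cyp2c enzymes are epoxygenases that turn arachidonic acid into epoxyeicosatrienoic acids, lipid mediators that relax vessels and dampen inflammation and that soluble epoxide hydrolase (Ephx2) inactivates. Others oxidize drugs and steroids, and Cyp2c70 makes the muricholic acids, the hydrophilic bile acids of the mouse. In the liver this family is known to be controlled by the xenobiotic receptors CAR and PXR, by HNF4A and C/EBP factors and by the sex-specific rhythm of growth hormone.

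Because the paralogues resemble each other, the probes were examined before the values. All lie on chromosome 19 by the mm9 coordinates of the files. The Cyp2c44 probe starts at base 44079535, apart from the other Cyp2c probes, which lie between bases 39116674 and 40228028. Of 153 pairs of Cyp2c probes, set side by side over at least 40 bases, 3 shared 80% of their bases or more, and the median identity of the other pairs was 40.4%. A pair of Cyp2c54 probes shared 42 bases exactly, the Cyp2c37 probe A_51_P498882 and the Cyp2c50 probe A_55_P2020477 were 87.5% identical over 40 bases, and probes for Cyp2c67 and Cyp2c68 were 93.2% identical over 59 bases. The sequences that bear on the readings are printed 5′ to 3′, first the Cyp2c54 pair, in which the shared bases are in capitals.
Cyp2c54 A_52_P154580 (chr19:40122119-40144700, minus strand): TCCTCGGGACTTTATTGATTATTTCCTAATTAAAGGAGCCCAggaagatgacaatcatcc
Cyp2c54 A_55_P2158547 (chr19:40144659-40144718, minus strand): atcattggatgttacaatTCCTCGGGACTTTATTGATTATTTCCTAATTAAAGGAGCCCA
The first of this pair covers 60 bases of transcript that span 22582 bases of genome, so it reads across an exon junction. The next pair shows how close paralogues come in a conserved stretch, with bases that both probes share over an overlap of 31 bases in capitals.
Cyp2c29 A_51_P103706 (chr19:39403642-39403701, plus strand): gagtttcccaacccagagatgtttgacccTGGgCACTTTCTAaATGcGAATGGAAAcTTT
Cyp2c37 A_55_P1964483 (chr19:40084382-40084441, plus strand): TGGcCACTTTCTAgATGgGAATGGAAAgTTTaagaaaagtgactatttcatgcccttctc
In that overlap 27 bases matched and 4 did not, which is 87.1% identity. Signal from a paralogue in any of these probes was not tested and cannot be told apart from signal of the named gene. The array's own annotation lists the Cyp2c40 transcript under a probe named Cyp2c67 that also lists Cyp2c68, and under a probe named Cyp2c68 that also lists Cyp2c69, so Cyp2c40 has no reading of its own here.

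Levels below are log2 signals relative to the 75th percentile of each array, so a level of 0 is a probe as bright as that percentile, and levels of different probes are not compared. Differences are log2 differences of group means from 1 limma fit over all 32 arrays, with the brightest probe standing for a gene, and a gene changed when its p-value after Benjamini-Hochberg adjustment over 21289 tested gene names was under 0.05. The share of probes well above background was 36.2% to 69.1% by array, and the number of arrays limits the precision. Each group lay on 1 slide, and a slide held the C and MCD groups before PH, both treated groups before PH, or both treated groups after PH, while the C and the MCD group after PH each had a slide alone. The effect of diet was therefore read within a slide, except in untreated mice after PH. In that comparison, and in all comparisons of treated with untreated mice or of livers after with before PH, slide and group cannot be told apart. The C and the MCD group after PH were also read on another scanner than all other groups. Where either of them was set against a group read on the other scanner, scanner and group cannot be told apart. The signature hepatocyte genes were bright on every array, with summed signals over 8 hepatocyte markers (albumin, apolipoproteins, transthyretin and others) between 2960 and 7080 times the 75th percentile.

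The MCD diet lowered most of the Cyp2c family before PH. In untreated mice 7 of the 9 measured members fell and none rose, where 26.3% of all tested genes changed and 15.4% fell. The median difference of the members was -1.43, against -0.12 over all tested genes. The arrays of the 2 groups did not overlap for 7 members and for 28.3% of all tested genes. By the brightest probe of each gene the largest fall was that of Cyp2c38, an arachidonic acid epoxygenase, and the smallest among those that passed the test was that of Cyp2c70.

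Cyp2c38 was measured at 8.08, 8.0, 7.33 and 7.36 in C mice and at 4.92, 4.46, 5.41 and 4.96 in MCD mice. The lowest C liver lay well over the highest MCD liver, and the signal was 6.75-fold lower on the MCD diet (log2 difference -2.76, SE 0.39, adjusted p = 1.17e-05). Cyp2c29, an epoxygenase that responds to CAR, was measured at 8.29, 7.92, 7.90 and 7.76 in C and at 6.56, 6.25, 6.79 and 6.56 in MCD mice. These 8 livers formed tight groups without overlap, and the signal fell 2.69-fold (-1.43, SE 0.30, adjusted p = 0.00098). Cyp2c44, which makes epoxyeicosatrienoic acids in kidney and liver, was measured at 6.72, 6.38, 6.80 and 5.96 in C and at 5.24, 4.95, 5.61 and 5.17 in MCD mice. The groups again did not overlap and the fall was 2.34-fold (-1.23, SE 0.24, adjusted p = 0.000513). Cyp2c37, which hydroxylates arachidonic acid, was measured at 6.39, 5.46, 6.89 and 6.59 in C and at 4.79, 4.22, 4.76 and 4.68 in MCD mice. Its fall was 3.29-fold (-1.72, SE 0.43, adjusted p = 0.00418), also without overlap, and its other probe fell too (-1.54, SE 0.43, adjusted p over all probes = 0.00942).

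The fall of the remaining members was less secure. Cyp2c50, an epoxygenase of arachidonic and linoleic acid, fell 3.07-fold (-1.62, SE 0.39, adjusted p = 0.00284), from 8.50, 8.68, 7.97 and 7.38 in C to 6.59, 5.72, 6.69 and 7.04 in MCD mice. With normexp background correction and quantile normalization, or with the authors' normalized values, it lost the call, with -0.72 and -0.70 (adjusted p up to 0.25). Cyp2c70 fell 2.21-fold (-1.15, SE 0.32, adjusted p = 0.00899), from 7.79, 8.31, 8.94 and 8.01 to 7.04, 6.27, 8.05 and 7.10, where 1 MCD liver lay among the C livers. With normexp and quantile normalization this difference was -0.34 (adjusted p = 0.431), and without MCD replicate 2 the adjusted p was 0.0528. Cyp2c39, an epoxygenase that also hydroxylates retinoic acid, fell 2.53-fold (-1.34, SE 0.50, adjusted p = 0.0455), from 2.26, 3.51, 2.95 and 1.81 to 1.57, 0.68, 1.30 and 1.62. This call was lost in 4 of 10 other settings and without 7 of the 8 arrays in turn, although the 2 groups did not overlap. Cyp2c55, a hydroxylase of arachidonic acid that is most abundant in the colon, did not pass the test before PH (-0.42, SE 0.31, adjusted p = 0.328). Its arrays did not overlap, however, lying between 0.77 and 1.19 in C and between 0.47 and 0.70 in MCD livers.

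Cyp2c54, an epoxygenase close to Cyp2c50, was read differently by its 3 probes. The brightest probe, A_55_P1993419, gave 7.63, 5.72, 5.51 and 8.11 in C livers and 5.03, 4.43, 5.52 and 6.07 in MCD livers. The C livers spread over more than 2 log2 units on it, and the difference missed the threshold (-1.48, SE 0.57, adjusted p = 0.0552). The exon-junction probe A_52_P154580 gave 3.28, 2.13, 3.34 and 3.29 in C and -0.26, -2.42, -0.38 and -0.30 in MCD livers, a difference of -3.85 (SE 0.67, adjusted p over all probes = 0.000144). Its partner A_55_P2158547 gave -1.85 (SE 0.46, adjusted p over all probes = 0.00435). Thus both probes that share 42 bases passed the test and the brightest one did not. Cyp2c38 had the opposite case, since its second and dim probe A_52_P468564 was at -2.29, -1.83, -2.23 and -2.21 in C and at -1.77, -3.47, -2.17 and -2.44 in MCD mice, a difference of -0.32 (SE 0.32, adjusted p over all probes = 0.491) where the brightest probe gave -2.76, and the mean over both probes was -1.54. This dim probe starts at base 2417 of the transcript it was designed on and the bright one at base 1440.

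**Figure D1:**
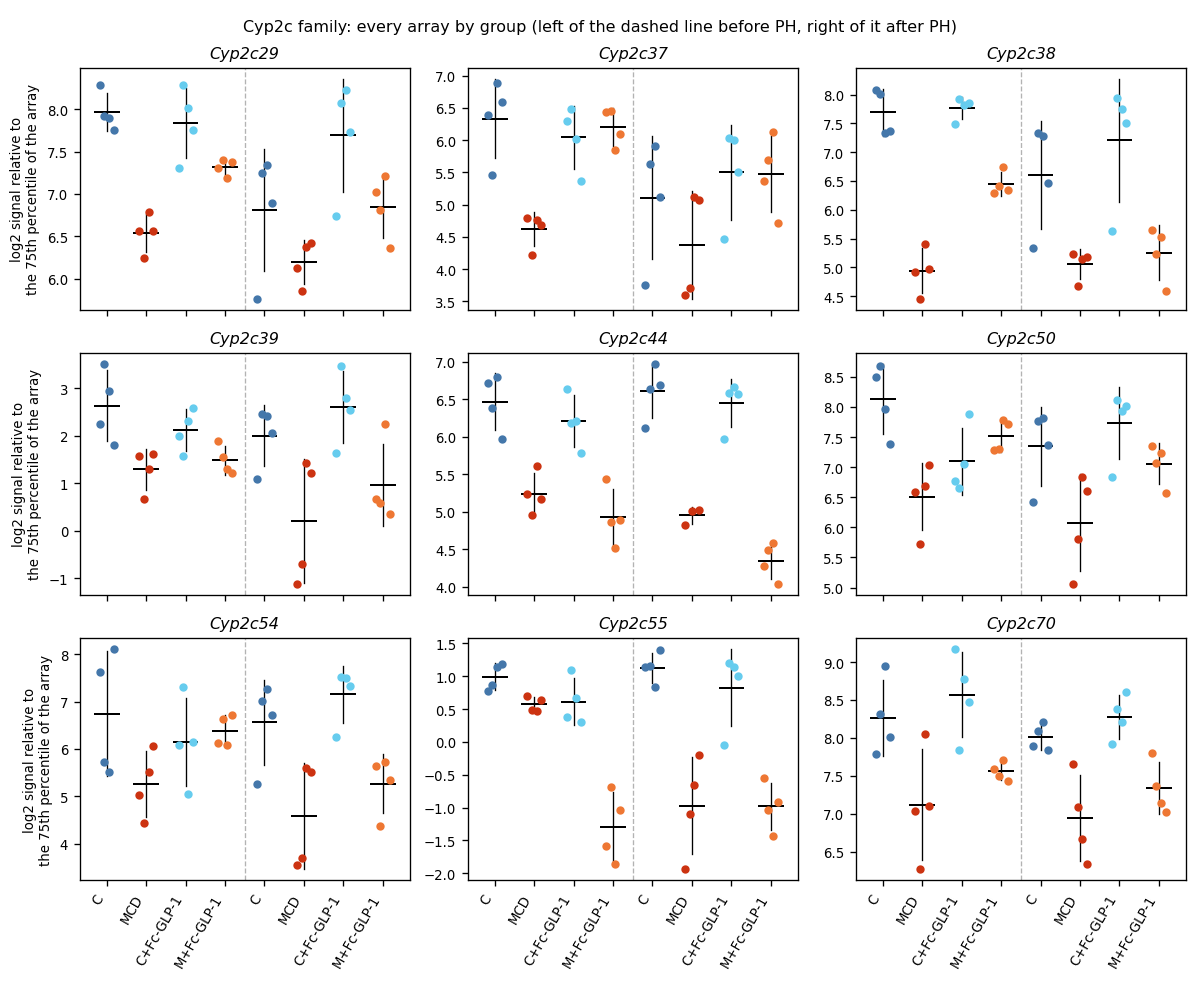
Levels of the 9 measured Cyp2c genes on every array, as log2 signal relative to the 75th percentile of the array (y axis, scaled for each gene), by group on the x axis. Points are single livers, horizontal bars the mean of up to 4 livers and vertical lines the SD, and the dashed line parts the groups before and after PH. Cyp2c38 in C mice before PH lies between 7.33 and 8.08, and in MCD mice between 4.46 and 5.41.

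Other cells and hepatocyte genes moved with the diet before PH. Of 8 tested hepatocyte markers 3 fell and none rose, with a median difference of -0.62, and their summed signal lay between 5360 and 7020 in C and between 3470 and 3870 in MCD livers. Of 10 markers of Kupffer cells and macrophages 8 rose, with sums of 60.1 to 110.0 in C and 130.0 to 360.0 in MCD livers. Neutrophil markers rose for 4 of 9 and stellate cell and fibroblast markers for 4 of 9. In whole-liver RNA fewer hepatocytes and less RNA per hepatocyte cannot be told apart, and the part of cell composition in the fall of the Cyp2c genes was not tested. In treated mice 0 of the 8 hepatocyte markers changed between the diets at either time by limma, with 1 and 0 at an unadjusted p under 0.05 before and after PH. There 1 of 10 macrophage markers fell before PH, and 2 of 10 macrophage and 3 of 5 B cell markers fell after PH.

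Before PH, M+Fc-GLP-1 livers were set against MCD livers from another slide, and 2 of 9 Cyp2c genes rose with the treatment and 1 fell, where 7.21% of all tested genes changed, 4.42% higher and 2.79% lower. Arrays of the 2 groups did not overlap for 6 members and for 16.3% of all tested genes, and the members' median difference was 0.78 against 0.10 over all genes. Cyp2c37 was measured at 6.43, 6.45, 5.84 and 6.10 in M+Fc-GLP-1 livers, all above the 4.22 to 4.79 of MCD livers. This was a 3.02-fold rise (1.59, SE 0.43, adjusted p = 0.0247), which the second Cyp2c37 probe did not show at the threshold (0.54, SE 0.43, adjusted p over all probes = 0.476). Cyp2c38 was measured at 6.28, 6.42, 6.74 and 6.34 in the treated livers, a 2.85-fold rise (1.51, SE 0.39, adjusted p = 0.0204). On its dim probe the difference was 1.70 (SE 0.32, adjusted p over all probes = 0.00303). Both rises lost their call without MCD replicate 1 or MCD replicate 2, and when arrays were centred on their median, where Cyp2c55 was the 1 member called. Cyp2c38 also lost its call with normexp and quantile normalization and with the authors' values, and Cyp2c37 with the mean over its probes. Without M+Fc-GLP-1 replicate 1 the call of Cyp2c37 was lost, and without M+Fc-GLP-1 replicate 3 that of Cyp2c38.

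Cyp2c55 went the other way. It was at 0.70, 0.49, 0.47 and 0.64 in MCD livers and at -1.58, -0.69, -1.86 and -1.03 in M+Fc-GLP-1 livers before PH, so every treated liver lay below every untreated one. The signal fell 3.65-fold (-1.87, SE 0.31, adjusted p = 0.00077), and this call was kept in all 10 other settings and without each of the 8 arrays. Cyp2c29, Cyp2c50 and Cyp2c54 did not overlap between the 2 groups either but did not pass the adjusted test, with differences of 0.78 (adjusted p = 0.109), 1.01 (adjusted p = 0.105) and 1.13 (adjusted p = 0.226). Macrophage markers fell for 5 of 10 in the same comparison and 1 of 8 hepatocyte markers rose. Their part in these differences was not tested.

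Among treated mice before PH, the MCD diet lowered 4 of 9 members, where 10.4% of all tested genes changed and 5.02% fell. By the brightest probes these were Cyp2c38, Cyp2c44, Cyp2c55 and Cyp2c70. On the same probes those 4 members had arrays without overlap, as had 15.5% of all tested genes. Cyp2c55 lay between 0.31 and 1.09 in C+Fc-GLP-1 and between -1.86 and -0.69 in M+Fc-GLP-1 livers, a 3.75-fold fall (-1.91, SE 0.31, adjusted p = 0.000109). Cyp2c44 lay between 5.79 and 6.64 in C+Fc-GLP-1 and between 4.52 and 5.43 in M+Fc-GLP-1 livers and fell 2.43-fold (-1.28, SE 0.24, adjusted p = 0.00069). The difference was 0.16 for Cyp2c37 (SE 0.43, adjusted p = 0.859) and 0.42 for Cyp2c50 (SE 0.39, adjusted p = 0.538), neither past the threshold. Cyp2c54 was again read differently by its probes, and the brightest gave 0.24 (SE 0.57, adjusted p = 0.845). Its exon-junction probe A_52_P154580 lay between 2.64 and 3.67 in C+Fc-GLP-1 and between 0.18 and 1.19 in M+Fc-GLP-1 livers. A_55_P2158547 lay between 5.46 and 5.82 and between 3.55 and 4.77, so on both the MCD diet livers were lower without overlap. The call of Cyp2c38 (-1.32, SE 0.39, adjusted p = 0.0287) depended on the probe, because its dim probe gave 1.36 (SE 0.32, adjusted p over all probes = 0.00626) and the mean over both probes gave 0.020 (adjusted p = 0.976). Cyp2c70 (-1.01, SE 0.32, adjusted p = 0.0405) kept its call in 7 of 10 other settings and without only 1 of the 8 arrays, C+Fc-GLP-1 replicate 2, and 2 members were called without C+Fc-GLP-1 replicate 3 or 4 or M+Fc-GLP-1 replicate 1 or 4.

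The effect of the diet before PH was compared between untreated and treated mice by the interaction term of the same fit, in which each diet difference was taken within a slide. It passed the threshold for 2 of 9 members, where 6.13% of all tested genes passed, 3.57% with a higher and 2.56% with a lower diet effect in treated mice. The diet difference of Cyp2c50 was -1.62 in untreated and 0.42 in treated mice, and these differed by 2.04 (SE 0.55, adjusted p = 0.0276). That of Cyp2c55 was -0.42 in untreated and -1.91 in treated mice, and these differed by -1.49 (SE 0.44, adjusted p = 0.0405). Both were lost with normexp and quantile normalization and with the authors' values, in which no member passed. No member passed without C replicate 1, MCD replicate 2, C+Fc-GLP-1 replicate 2 or M+Fc-GLP-1 replicate 3, and Cyp2c55 but not Cyp2c50 lost its call without MCD replicate 1, 3 or 4, C+Fc-GLP-1 replicate 3 or M+Fc-GLP-1 replicate 1. Without C replicate 2 both were lost and Cyp2c37 was the 1 member that passed. For Cyp2c37 the interaction was 1.88 (SE 0.61, adjusted p = 0.0605).

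**Figure D2:**
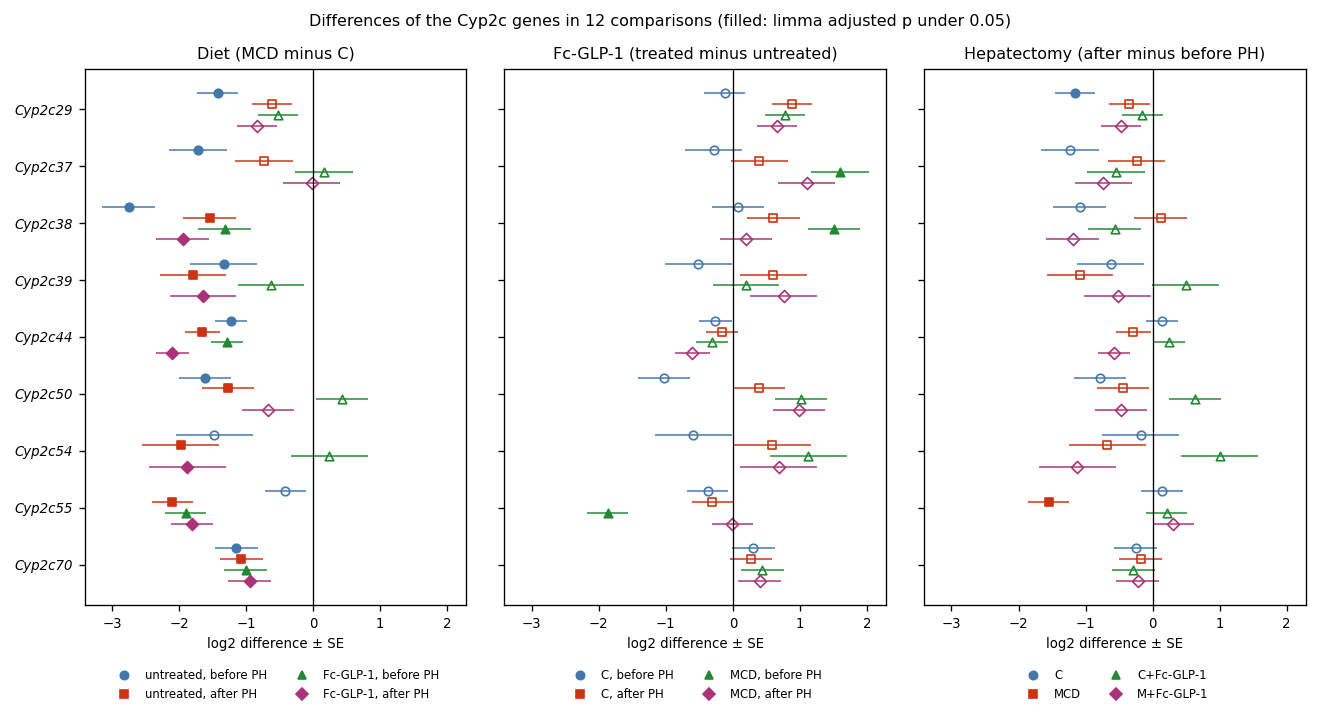
Log2 differences between group means for the 9 Cyp2c genes (x axis, same scale in the 3 panels) by diet, by Fc-GLP-1 treatment and after against before PH, with bars of 1 SE from limma. Filled points had an adjusted p under 0.05. Filled points of the diet panel all lie below 0, whereas the treatment panel holds 3 filled points, Cyp2c37 and Cyp2c38 above 0 and Cyp2c55 below it.

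In mice on the standard diet no Cyp2c gene passed the test for Fc-GLP-1. Before PH 0 of 9 members passed in C+Fc-GLP-1 against C mice, where 2.08% of all tested genes changed, and at an unadjusted p under 0.05 there was 1 member of 9 and 3846 of 21289 genes, and in every other setting run 0 members passed. That member was Cyp2c50, at 6.78, 6.66, 7.06 and 7.89 in treated and 7.38 to 8.68 in untreated livers (-1.03, SE 0.39, adjusted p = 0.144). After PH 0 of 9 members passed, where 2.05% of all tested genes changed, and at an unadjusted p under 0.05 there was 1 member, Cyp2c29 (0.88, SE 0.30, adjusted p = 0.13), and 3131 genes. Without C+Fc-GLP-1 replicate 1, 1 member was called after PH.

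After PH the family was again lower on the MCD diet. In untreated mice 7 of 9 members fell and none rose, where 12.2% of all tested genes changed and 6.11% fell, and the median difference of the members was -1.54 against -0.03 over all genes. The members that fell were Cyp2c38, Cyp2c39, Cyp2c44, Cyp2c50, Cyp2c54, Cyp2c55 and Cyp2c70, and 4 of the 9 members had arrays without overlap, as had 17.2% of all tested genes. Cyp2c55 was at 1.14, 1.15, 0.84 and 1.39 in C and at -1.94, -1.09, -0.66 and -0.20 in MCD livers. All C livers were above all MCD livers, and the fall was 4.30-fold (-2.10, SE 0.31, adjusted p = 2.88e-05). Cyp2c44 was at 6.12, 6.64, 6.97 and 6.69 in C livers and at 4.82, 5.02 and 5.02 in MCD livers, where the spot of replicate 1 was flagged by the scanner software and the fit used 3 MCD arrays. It fell 3.15-fold (-1.66, SE 0.26, adjusted p = 7.99e-05).

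Cyp2c38 fell 2.91-fold after PH (-1.54, SE 0.39, adjusted p = 0.00981), Cyp2c39 3.47-fold (-1.80, SE 0.50, adjusted p = 0.0164) and Cyp2c54 3.93-fold (-1.98, SE 0.57, adjusted p = 0.022). The MCD livers were split on Cyp2c39, with -1.11 and -0.69 in replicates 1 and 2 and 1.42 and 1.22 in the others, and they were split in the same way on the brightest Cyp2c54 probe, with 3.54 and 3.69 against 5.60 and 5.52. For Cyp2c54 the exon-junction probe gave -3.76 (SE 0.67, adjusted p over all probes = 0.000385), with 1 MCD array of 4 not well above background on it. Cyp2c50 (-1.27, SE 0.39, adjusted p = 0.0291) and Cyp2c70 (-1.07, SE 0.32, adjusted p = 0.0259) also fell, whereas Cyp2c29 (-0.62, SE 0.30, adjusted p = 0.197) and Cyp2c37 (-0.73, SE 0.43, adjusted p = 0.30) did not pass. The count of 7 dropped to 2 when only these 2 groups were fitted or without C replicate 2, to 3 without C replicate 3 and to 4 without MCD replicate 1 or 2. The calls of Cyp2c44 and Cyp2c55 held in all other settings that tested them and without each of the 8 arrays. Leaving out every probe flagged on any array removed the only Cyp2c44 probe, so that setting could not test Cyp2c44. By limma 0 of the 8 hepatocyte markers changed here (1 at an unadjusted p under 0.05), with sums of 2960 to 4710 in C and 3520 to 4220 in MCD livers, while 6 of 9 neutrophil markers rose.

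In treated mice after PH 6 of 9 members fell on the MCD diet and none rose, where 12.9% of all tested genes changed and 6.67% fell. Arrays did not overlap for 4 members and for 16.6% of all tested genes. The members' median difference was -1.64 against -0.01 over all genes. Cyp2c44 had the smallest adjusted p of any member in the 12 comparisons between groups. It was at 5.97, 6.59, 6.66 and 6.57 in C+Fc-GLP-1 and at 4.28, 4.48, 4.58 and 4.04 in M+Fc-GLP-1 livers, a 4.29-fold fall (-2.10, SE 0.24, adjusted p = 8.38e-07). Cyp2c55 fell 3.50-fold (-1.81, SE 0.31, adjusted p = 0.00016) and Cyp2c38 3.86-fold (-1.95, SE 0.39, adjusted p = 0.00111). These 3 calls held in all other settings that tested the gene and without each array. For Cyp2c38 the mean over both probes was -1.14, since its dim probe gave -0.32 (SE 0.32, adjusted p over all probes = 0.601). Cyp2c39 (-1.64, SE 0.50, adjusted p = 0.0261), Cyp2c54 (-1.88, SE 0.57, adjusted p = 0.0273) and Cyp2c70 (-0.94, SE 0.32, adjusted p = 0.0484) passed as well. Each of these 3 calls was lost without 4 or more of the 8 arrays in turn, and 3 members were called without C+Fc-GLP-1 replicate 2 or 3 or M+Fc-GLP-1 replicate 2. The difference of Cyp2c37 was -0.03 (SE 0.43, adjusted p = 0.983).

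For Fc-GLP-1 in MCD mice after PH 0 of 9 members passed by limma, where 6.45% of all tested genes changed, and 4 members and 4718 of 21289 genes had an unadjusted p under 0.05. In every other setting run 0 members passed. Cyp2c55, lower in treated than in untreated MCD livers before PH, was at -0.97 in MCD and at -0.98 in M+Fc-GLP-1 livers after PH (difference -0.01, SE 0.31, adjusted p = 0.991). Cyp2c37 was 2.14-fold higher in treated livers without passing (1.10, SE 0.43, adjusted p = 0.125), and the second Cyp2c37 probe passed at the edge of the threshold (1.39, SE 0.43, adjusted p over all probes = 0.0495). The dim Cyp2c38 probe A_52_P468564 passed as well (1.37, SE 0.32, adjusted p over all probes = 0.0111), where the brightest gave 0.20 (SE 0.39), with 2 of 4 MCD arrays after PH well above background on the dim one. The interaction of diet and treatment after PH passed for 0 of 9 members and for 0 of 21289 genes, a share of 0%, with 0 members and 1842 genes at an unadjusted p under 0.05.

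Between livers after and before PH, members passed in C and MCD mice at about the share of all genes. In C mice 1 of 9 fell, where 13.8% of all tested genes changed and 7.82% fell. It was Cyp2c29, from 7.76 to 8.29 before PH to 5.76, 7.25, 7.34 and 6.89 after PH (-1.16, SE 0.30, adjusted p = 0.0113), the groups not overlapping. Without C after PH replicate 1 its adjusted p was 0.0756 and no member was called, whereas 2 were called without C before PH replicate 2 or with the replicate number as a block, and 3 without C after PH replicate 2 or 3. All 10 macrophage markers rose in the same comparison, and their part in it was not tested. In MCD mice 1 of 9 fell, where 9.33% changed and 3.18% fell. It was Cyp2c55, from 0.47 to 0.70 before PH to between -1.94 and -0.20 after PH (-1.55, SE 0.31, adjusted p = 0.00189), a call kept in all 10 other settings and without each of the 8 arrays, while 6 of 9 neutrophil markers rose. In C+Fc-GLP-1 mice 0 of 9 members passed, where 0.831% of all genes changed, with 0 members and 3246 genes at an unadjusted p under 0.05. In M+Fc-GLP-1 mice 0 of 9 passed, where 1.71% changed, with 2 members and 3409 genes at an unadjusted p under 0.05, the lower of them in p being Cyp2c38 (-1.19, SE 0.39, adjusted p = 0.117), whose arrays did not overlap. Second probes passed where the brightest did not, Cyp2c37 A_55_P1964483 in C mice (-1.51, SE 0.43, adjusted p over all probes = 0.0196) and the dim Cyp2c38 probe in MCD mice (-1.42, SE 0.32, adjusted p over all probes = 0.0061) and in M+Fc-GLP-1 mice (-1.76, SE 0.32, adjusted p over all probes = 0.00344).

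The interaction of diet and time in untreated mice passed for 1 of 9 members, where 2.78% of all tested genes passed, 1.06% with a lower effect after PH. This was Cyp2c55, for which the effect of the diet was -0.42 before and -2.10 after PH, a difference of -1.69 (SE 0.44, adjusted p = 0.0343). This call was lost without any filter on dim probes, with the replicate number within each treatment as a block, and without 9 of the 16 arrays in turn, namely replicate 1 of C and replicates 1, 3 and 4 of MCD before PH, and replicates 1, 2 and 4 of C and 1 and 2 of MCD after PH. In treated mice the interaction passed for 0 of 9 members, where 0.0939% of all genes passed, with 2 members and 2070 genes at an unadjusted p under 0.05.

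The order of the groups differed between members. By the brightest probes, the 4 groups on the standard diet held the 4 highest means for Cyp2c38, Cyp2c39, Cyp2c44, Cyp2c55 and Cyp2c70. The same held on the Cyp2c54 probes A_52_P154580 and A_55_P2158547 but not on the brightest Cyp2c54 probe or the dim Cyp2c38 probe. For Cyp2c44 the standard diet groups ran from 6.61 in C after PH to 6.21 in C+Fc-GLP-1 before PH, neighbours overlapping. A step of 0.96 without overlap then led to MCD before PH at 5.24. M+Fc-GLP-1 after PH was lowest at 4.35. For Cyp2c55 untreated MCD livers before PH (0.58) stood directly under the standard diet groups (0.61 to 1.13), and a step of 1.55 without overlap parted them from the other 3 MCD diet groups (-0.97 to -1.29). For Cyp2c70 the standard diet groups lay between 8.01 and 8.57, with a step of 0.45 without overlap to M+Fc-GLP-1 before PH at 7.56. Among the brightest probes Cyp2c38 had the widest span of group means, 2.83, from 7.77 in C+Fc-GLP-1 to 4.94 in MCD before PH, and its only step without overlap, 1.19, lay between M+Fc-GLP-1 before PH (6.45) and after PH (5.26). For Cyp2c29, Cyp2c37, Cyp2c39, Cyp2c50 and Cyp2c54 every pair of neighbouring groups overlapped. Cyp2c37 had C (6.33) and M+Fc-GLP-1 (6.21) before PH at the top and MCD livers at the bottom (4.61 before and 4.38 after PH).

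The members varied together within some groups. C+Fc-GLP-1 replicate 1 after PH was the lowest of its 4 arrays for 9 of 9 members, MCD replicate 2 before PH for 8 of 9, and C replicate 1 and M+Fc-GLP-1 replicate 4 after PH for 7 of 9 each. On C replicate 1 after PH the macrophage markers summed to 614.0 against 135.9 to 297.6 on the other C arrays, and the cholangiocyte markers to 51.85 against 3.29 to 7.22. After PH the cholangiocyte sum of C+Fc-GLP-1 replicate 1 was 70.62 against 6.27 to 14.45 on the other 3, and that of M+Fc-GLP-1 replicate 4 was 61.28 against 4.78 to 5.92. The macrophage sum of the latter was the lowest of its group, 184.9 against 190.1 to 252.5. MCD replicate 2 before PH likewise had a low macrophage sum, 130.1 against 260.8 to 360.3, and a low neutrophil sum, 52.54 against 175.3 to 319.4 on the other 3. The part of these cells in the low Cyp2c levels was not tested. The spread within groups was widest on Cyp2c54 (median SD 0.80) and narrowest on Cyp2c29 (0.31). The Cyp2c29 probe has 10 spots on each array, which were averaged, whereas each other member probe has 1 spot. The part of this averaging in the narrow spread was not tested.

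**Figure D3:**
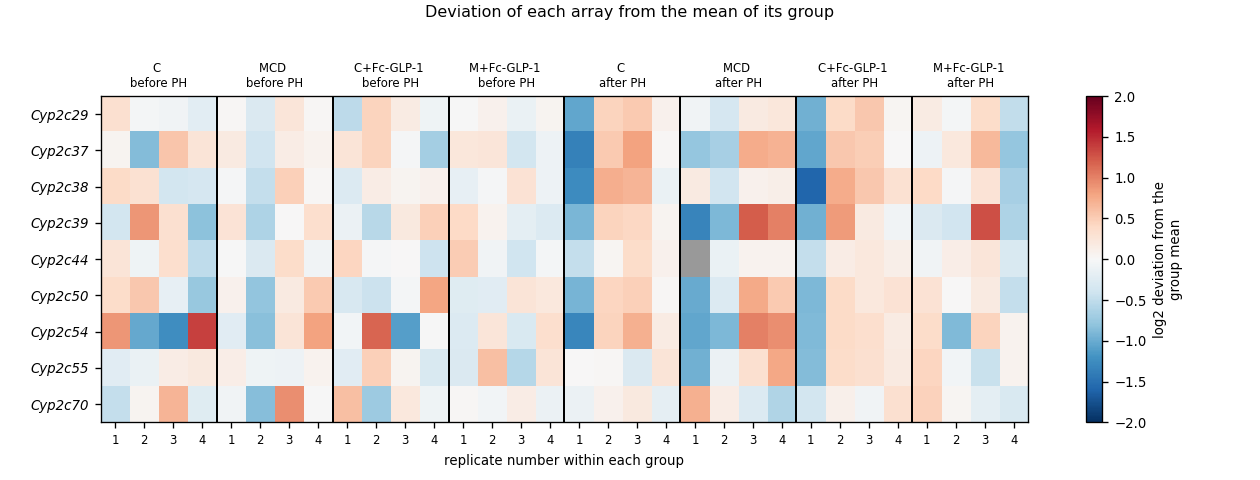
Deviation of every array from the mean of its group (colour, log2 units, blue lower and red higher) for the 9 Cyp2c genes (rows) by group and replicate number (columns). The grey cell is the flagged Cyp2c44 spot, and replicate 1 of C+Fc-GLP-1 after PH is the lowest of its group in all 9 rows.

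**Figure D4:**
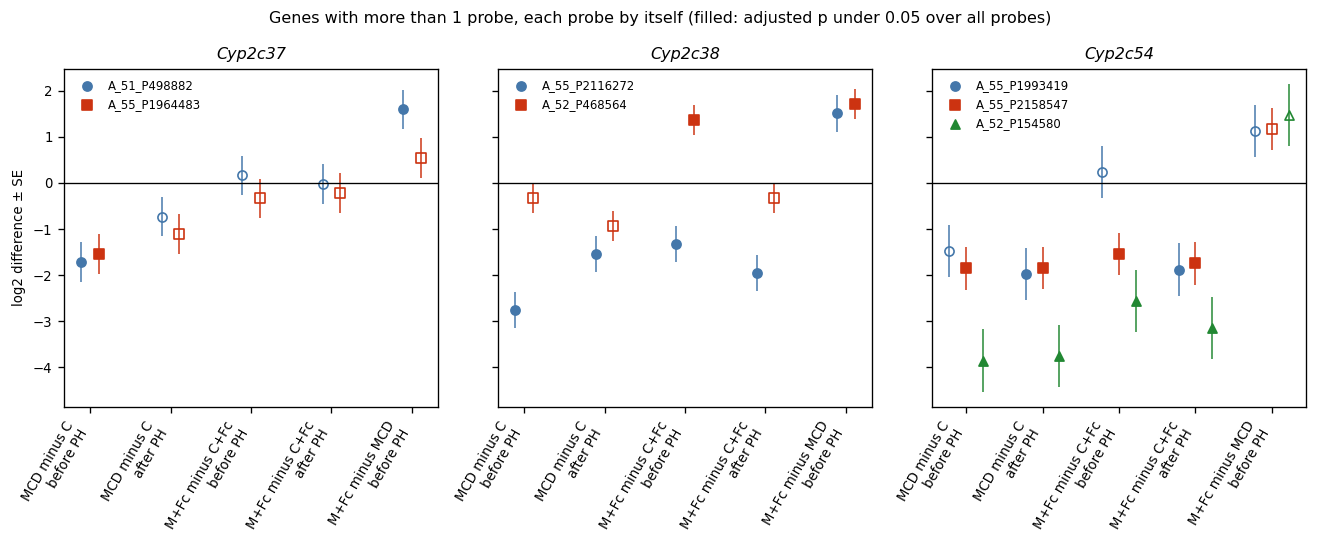
Log2 differences ± SE for each probe of the 3 Cyp2c genes that have more than 1 probe, in the 4 comparisons of diets and in treated against untreated MCD mice before PH (x axis). Filled points had an adjusted p under 0.05 over all probes. The dim Cyp2c38 probe A_52_P468564 lies at 1.36 in M+Fc-GLP-1 against C+Fc-GLP-1 mice before PH, where the bright probe lies at -1.32.

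By the probe that stood for each gene, the nearest relatives of the members gave no call. Cyp2c66, Cyp2c67 and Cyp2c68 had differences of -0.54, -0.19 and -0.39 between MCD and C mice before PH, and 0 passed in any of the 12 comparisons between groups or the 4 interactions by limma. At an unadjusted p under 0.05 there was 1 of these differences, that of Cyp2c68 in M+Fc-GLP-1 against MCD mice before PH (0.79, SE 0.29, adjusted p = 0.0935). Cyp2c67 has a second probe, A_55_P1962661, on which the levels were 7.36 ± 0.90 in C and 5.78 ± 0.43 in MCD livers before PH (SD, n = 4). No test of this second probe is given here. The probe that stood for Cyp2c67 is the one that also lists Cyp2c40 and Cyp2c68, with 6.52 ± 0.92 and 6.33 ± 0.64. The Cyp2c66 probe was dim, with group means from -4.37 to -3.24, and it also lists Cyp2c65. It was well above background on 0 of 4 C+Fc-GLP-1 and 2 of 4 M+Fc-GLP-1 arrays before PH and on 2 of 4 MCD arrays after PH. A change of Cyp2c66 could therefore be missed. Cyp2c65 was not well above background on all 4 arrays of any group and was not tested.

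Likeness over the 8 group means, each gene centred on its own mean, was measured by the root mean square difference on the log2 scale. The nearest other member was Cyp2c70 for Cyp2c29 (0.28), Cyp2c54 for Cyp2c39 (0.29), Cyp2c29 for Cyp2c37 (0.31) and Cyp2c50 (0.35), Cyp2c55 for Cyp2c44 (0.42) and Cyp2c39 for Cyp2c38 (0.55). Each member had a nearer gene among the 21277 tested genes outside the family, such as 5730414N17Rik for Cyp2c29 (0.08), Rfxank for Cyp2c44 (0.12), Hsd3b3 for Cyp2c39 (0.17), Odf3b for Cyp2c38 (0.21) and Ces2b for Cyp2c55 (0.25). The same value was 0.11 for Whrn with Cyp2c37 and 0.12 for Sgce with Cyp2c70, and for Cyp2c50 and Cyp2c54 the nearest probes have no gene name. These values describe 8 means and carry no test.

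The partners of the Cyp2c enzymes and the genes on either side of the epoxygenase step moved in both directions. Of 21 tested genes of this list, 4 rose and 7 fell on the MCD diet in untreated mice before PH, with a median of -0.46 against -0.12 over all genes. Por, the reductase that feeds electrons to every microsomal P450, rose from 5.88 ± 0.33 to 6.70 ± 0.20 (0.82, SE 0.27, adjusted p = 0.0249). It was higher on the MCD diet in treated mice by 2.51 before PH (SE 0.27, adjusted p = 2.65e-07) and by 2.40 after PH (SE 0.27, adjusted p = 4.84e-07), and in untreated mice by 1.47 after PH (SE 0.27, adjusted p = 0.000471). Cyp2c44 and Cyp2c55 fell in the last 3 of these comparisons, in which Por rose. Cytochrome b5 (Cyb5a), a second electron donor, rose by 0.82 (SE 0.29, adjusted p = 0.0377), whereas its reductase Cyb5r3 fell by 1.56 (SE 0.30, adjusted p = 0.000383).

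Among genes that release or use arachidonic acid, the phospholipase Pla2g4a was not well above background on any C array before PH and at least 3.60-fold higher in MCD mice (adjusted p = 0.000721), and the cyclooxygenase Ptgs1 rose by 1.33 (SE 0.33, adjusted p = 0.00397). The prostaglandin D synthase Ptgds fell by 2.88 (SE 0.61, adjusted p = 0.000917). Cyp4f15, which hydroxylates arachidonic acid and leukotrienes, fell by 1.85 (SE 0.28, adjusted p = 2.23e-05), and Cyp2j5, an epoxygenase of another P450 family, by 1.69 (SE 0.39, adjusted p = 0.00214). After PH 1 of the 21 genes rose and 7 fell in untreated mice. In treated mice 1 rose and 2 fell before PH, and 1 rose and 6 fell after PH. For Fc-GLP-1 in MCD mice 0 of the 21 passed by limma at either time, with 4 and 6 at an unadjusted p under 0.05.

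Of 31 receptors and transcription factors known to act on hepatic Cyp2c genes, 3 rose and 8 fell on the MCD diet before PH in untreated mice, with a median of -0.28 against -0.12 over all genes. Cux2, a factor of female liver that growth hormone controls, was near background in C livers (well above it on 3 of 4 arrays) and rose by 1.82 (SE 0.47, adjusted p = 0.00514). In M+Fc-GLP-1 livers before PH it lay between 0.79 and 2.38, against -4.54 to -2.80 in C+Fc-GLP-1 livers (difference 5.29, SE 0.47, adjusted p = 1.05e-08). Bcl6, a repressor of male liver, fell by 2.05 in untreated mice (SE 0.67, adjusted p = 0.0245), by 2.28 in treated mice before PH (SE 0.67, adjusted p = 0.0266) and by 3.65 in treated mice after PH (SE 0.67, adjusted p = 0.000383). Its C livers before PH spread from 2.79 to 5.83. The growth hormone receptor Ghr fell by 1.18 (SE 0.41, adjusted p = 0.0323), the corepressor Nr0b2 by 1.76 (SE 0.37, adjusted p = 0.00102) and the clock repressor Nr1d1 by 1.32 (SE 0.47, adjusted p = 0.0379). The stress factor Nfe2l2 rose by 1.07 (SE 0.26, adjusted p = 0.00288) and Ahr, the dioxin receptor, by 1.06 (SE 0.33, adjusted p = 0.0191). The calls of Cux2, Ahr, Ghr, Por and Ptgs1 in untreated mice before PH were lost with normexp and quantile normalization and with the authors' values, and those of Cyp2j5 and Pla2g4a with the authors' values. Those of Nr1d1 and Cyb5a were lost without the filter on dim probes, that of Nr1d1 and that of Ghr also with median centring, and both Nr1d1 and Cyb5a kept their call without only 2 of the 8 arrays in turn.

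In treated mice 9 of the 31 rose and 4 fell on the MCD diet before PH, and 7 rose and 4 fell after PH, while in untreated mice after PH 5 rose and 1 fell. In M+Fc-GLP-1 against MCD mice 3 rose and none fell before PH, and 2 rose and none fell after PH. Cux2 was one of them at both times, higher by 3.99 (SE 0.47, adjusted p = 1.58e-05) and by 2.21 (SE 0.47, adjusted p = 0.00489).

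Genes that share other features with the family did not move as one on the MCD diet. Cyp2c29, Cyp2c37 and Cyp2c50 are known from pericentral hepatocytes. Of 19 other pericentral genes 4 rose and 4 fell before PH in untreated mice, with a median of 0.25. Of 17 periportal genes 2 rose and 5 fell, with a median of -0.70. Of 34 other xenobiotic P450 genes and CAR or PXR targets 10 rose and 9 fell, with a median of -0.35. In treated mice before PH the counts were 1 higher and 2 lower of 19, 2 and 1 of 17, and 12 and 4 of 34. Beside these lists, the 9 Cyp2c genes had 0 higher and 7 lower in untreated mice and 0 higher and 4 lower in treated mice. All these lists were described by their counts and medians, without a test of the list.

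Because most members fell on the MCD diet, their promoters were read for short motifs of known regulators in the 250 bases before the start. RefSeq on GRCm38.p6 gave 9 promoters of 8 member genes, with no entry for Cyp2c44 and Cyp2c54. The promoter of Cyp2c70 is shown because, among the promoters of the 7 measured members that had an entry, it was the only one to hold the HNF4 motif CAAAGTCCA, in capitals with the nuclear receptor core AGGTCA. That of Cyp2c38, the member with the largest fall before PH by the brightest probes, follows and holds none of the motifs searched.
Cyp2c70 (chr19:40187287-40187536, minus strand): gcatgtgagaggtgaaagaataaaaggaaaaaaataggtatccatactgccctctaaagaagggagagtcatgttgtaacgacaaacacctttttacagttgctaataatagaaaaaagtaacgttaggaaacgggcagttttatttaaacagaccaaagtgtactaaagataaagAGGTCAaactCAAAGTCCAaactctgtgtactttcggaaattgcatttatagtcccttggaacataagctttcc
Cyp2c38 (chr19:39463076-39463325, minus strand): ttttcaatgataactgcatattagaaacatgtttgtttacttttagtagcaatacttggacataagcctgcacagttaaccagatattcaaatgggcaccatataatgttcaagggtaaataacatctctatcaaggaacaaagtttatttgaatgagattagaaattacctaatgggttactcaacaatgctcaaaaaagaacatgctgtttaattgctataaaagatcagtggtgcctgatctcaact
Searched on both strands, CAAAGTCCA was found in 0.384% of 32851 mouse promoters of the same length, and in those of Cyp2c70 and of Cyp2c40, which has no probe. It was also found in the promoters of Cyp2c65, Cyp2c67, Cyp2c68 and Cyp2c69, relatives outside the members. Of these, Cyp2c67 and Cyp2c68 gave no call by the probe that stood for each. The second Cyp2c67 probe, for which no test is given, was at 7.36 in C and 5.78 in MCD livers before PH. AGGTCA was found in 14.0% of all promoters and in those of Cyp2c29 and Cyp2c70. Of the Cyp2c39 promoters, the one at chr19:39347096-39347345 held it and the one at chr19:39510572-39510821 did not. The C/EBP motif TTGCNNAA was found in 9.56% and in that of Cyp2c37, and among the relatives in those of Cyp2c67 and Cyp2c69. The STAT5 motif TTCNNNGAA was found in 7.02% and in none of the 9 member promoters. A match is a description of the letters in this window only, and AGGTCA and CAAAGTCCA did not overlap in the Cyp2c70 promoter.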

How the data were processed

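The authors deposited the scanner software's intensity values for each array (Agilent Feature Extraction 10.7.3.1, per the file headers background corrected and detrended, probe positions on mm9), and a table of normalized log2 values that the authors made with limma, separately for the arrays before and after PH. From the intensities, log2 of the processed signal minus the array's 75th percentile over 59305 non-control spots was computed. Flagged spots were left out, and 29300 probes were kept that had 3 values or more in every group and a signal clearly over background in every array of some group. The brightest probe stood for a gene. limma 3.58.1 in R 4.3.3 fitted 8 group means over 32 arrays, with Benjamini-Hochberg adjustment over 21289 gene names. The members and gene lists were chosen with earlier results of these data known. Named were the members, other Cyp2c genes, the nearest gene of each member, and, of the epoxygenase and receptor lists, up to 4 called genes in each direction in MCD against C mice before PH. For samples of the same replicate number in different groups, the correlation of their deviations had a mean of 0.02 (lowest -0.22). For the same number and treatment before and after PH the mean was 0.01 (lowest -0.05). Livers before and after PH lie on different slides, so these values cannot show whether the samples are paired. Alternatives were another background correction, scaling, dim-probe filter or probe rule, the authors' values, a fit of the compared groups alone, the replicate block and each array left out. The steps were tested on simulated data.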

Additional observations from a re-analysis of the deposited data

Results flagged for a closer look

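In 71 sets of 4 arrays, each 1 member in 1 group, the end array lay far from the other 3 in 5 sets, and chance gives about 1 in 20 such sets. In M+Fc-GLP-1 livers after PH Cyp2c39 was 2.25 in replicate 3 and 0.35 to 0.67 in the others. The other 4 sets were all C+Fc-GLP-1 replicate 1 after PH, which was low at 5.97 for Cyp2c44 (nearest array 6.57), at 6.84 for Cyp2c50 (7.94), at 6.26 for Cyp2c54 (7.32) and at -0.046 for Cyp2c55 (1.00). The effects of the diet before PH differed between untreated and treated mice by 2.04 for Cyp2c50 (adjusted p = 0.0276) and by -1.49 for Cyp2c55 (adjusted p = 0.0405), and in untreated mice they differed between after and before PH by -1.69 for Cyp2c55 (adjusted p = 0.0343). The last of these takes its after-PH part from 2 slides.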

How the results depend on the processing

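Of 32 member differences past the threshold, 13 kept their call in every other setting that tested the gene and without each array: those of Cyp2c29, Cyp2c37, Cyp2c38 and Cyp2c44 in MCD against C mice before PH, Cyp2c44 and Cyp2c55 after PH, Cyp2c44 and Cyp2c55 in treated mice before PH, Cyp2c38, Cyp2c44 and Cyp2c55 after PH, Cyp2c55 in M+Fc-GLP-1 against MCD mice before PH and Cyp2c55 after against before PH in MCD mice. Over all 32 and the other settings, 274 values kept direction and call, 41 lost the call and 1 turned, and with 1 array left out 195 kept it, 85 lost it and 0 turned. The turned value was Cyp2c38 in M+Fc-GLP-1 against C+Fc-GLP-1 mice before PH, 0.020 as the mean over both probes. Of 112 differences not called, 25 values reached the threshold in some setting and Cyp2c70 in C mice after against before PH turned to 0.94 with normexp and quantile normalization and passed the threshold there. The cause was not tested.

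In MCD against C mice before PH 4 members were called instead of 7 with normexp and quantile normalization and with the authors' values, and in M+Fc-GLP-1 against MCD mice 1 instead of 3 with median centring. In treated mice before PH 2 were called instead of 4 without the filter on dim probes, where more genes were tested. In MCD against C mice after PH 2 were called instead of 7 in a fit of these groups alone. After against before PH in C mice 3 were called instead of 1 with normexp and with the mean over probes, 0 in a fit of these groups alone and 2 with the replicate block, and in M+Fc-GLP-1 mice 1 instead of 0 with the mean over probes. The interaction before PH gave 0 instead of 2 with normexp and with the authors' values, 1 with median centring and without the filter, and 4 in a fit of its own groups. The diet and time interaction in untreated mice gave 0 instead of 1 without the filter. The replicate block changed no other count. With the replicate number within each treatment as a block, a setting chosen after seeing the data, the diet and time interaction in untreated mice gave 0 as well, and the counts after against before PH were the same.

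With 1 array left out the counts ranged from 5 to 7 in MCD against C mice before PH, from 1 to 3 in M+Fc-GLP-1 against MCD before PH, from 2 to 3 in treated mice before PH, from 2 to 8 in MCD against C after PH, from 0 to 1 in C+Fc-GLP-1 against C after PH, from 3 to 7 in treated mice after PH, from 0 to 3 in C mice after against before PH, from 0 to 2 for the interaction before PH and from 0 to 1 for that of diet and time in untreated mice. Median centring moved the median of all genes in MCD against C mice before PH from -0.12 to 0.24. The authors' values were used within a time only, since their 75th percentiles were 8.43 before and 9.05 after PH. Leaving out every probe flagged on any array was chosen after seeing the data and changed no count of calls by over 1.5 times. Cyp2c44 had no probe left in that setting and was not tested in it. A slide as a random block was not run, since each group lies on 1 slide.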
